A study of Homo sapiens and Mus musculus with 4 samples.

Results

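The 10 genes described here belong to the NOTCH signalling pathway and were followed in bulk RNA-seq libraries of 4 lymphocyte lines. The genes were listed by symbol, with earlier results of these data known. They are the receptors NOTCH1, NOTCH2 and NOTCH3, the nuclear cofactors RBPJ and MAML1, and the targets HES1, HEY1, DTX1 and NRARP. The last is the ubiquitin ligase subunit FBXW7. The human genes were read in the 2 human lines and the mouse genes of the same symbols in the 2 mouse lines, which gave 10 of 32738 human genes and 10 of 27998 mouse genes, or 20 of 60736 in all. All 10 symbols were found in both species.

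The human lines both come from T-cell leukaemias, Jurkat of the CD4 type and TALL104 of the CD8 type. Of the mouse lines, EL4 derives from a T-cell lymphoma and IVA12 is a hybridoma, that is, an antibody-secreting fusion of a B-lineage cell with a myeloma cell. All are established ATCC lines without a stated genetic change or drug treatment, and interleukin 2 was listed in the medium of TALL104 alone. The paper also describes TALL104 cells as smaller than the others and harder to culture, with slow growth and limited viability. Each line was represented by 1 library, so no difference below has a replicate check and no test was made. In bulk RNA, fewer cells with a transcript and less of it per cell cannot be told apart, and the media differed between the lines, so line and culture cannot be told apart either.

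NOTCH receptors are cell-surface proteins that act as their own messengers. Binding of a Delta-like or Jagged ligand on a neighbouring cell opens the receptor to cleavage by an ADAM protease and then by gamma-secretase, which frees the intracellular domain. That domain enters the nucleus, binds the DNA-bound protein RBPJ together with a Mastermind coactivator such as MAML1, and switches on genes such as HES1, HEY1, DTX1 and NRARP. FBXW7 marks the intracellular domain for destruction, and NRARP and DTX1 are feedback regulators. In the thymus NOTCH1 directs progenitors to the T lineage, NOTCH2 serves marginal zone B cells, and activated NOTCH1 is a frequent driver of T-cell leukaemia.

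Levels are in FPKM, fragments per kilobase of gene scaled to the size of the library. They are per length and so can be ordered within a library, as far as the gene lengths used hold. All members are annotated as protein-coding, and positions are those of the whole gene. The intervals in brackets are exact 95% Poisson intervals of the reads recovered from the FPKM. They cover counting error only and treat reads as independent. Sequenced reads are not independent molecules, so even the counting error may be understated. The libraries held between 25286728 (IVA12) and 34783047 (Jurkat) reads. T-cell markers summed to between 801 and 1127 FPKM in the T lines against 13.3 in IVA12, and B-cell markers to 1672 in IVA12 against 18.4 in EL4, 48.6 in Jurkat and 109 in TALL104. Of the 10 B-cell markers 6 were higher in IVA12 than in EL4, 1 was lower and 3 passed neither way. Jchain, the joining chain of secreted antibodies, stood at 1289 FPKM in IVA12, while Pax5, a B-cell defining transcription factor singled out after its values were seen, was at 0.156. All 8 cytotoxic and NK cell markers were higher in TALL104 than in Jurkat. IVA12 also held a few genes of the other marker lists. Epcam, at 69.7 FPKM, was the highest on the list named stromal and endothelial, where 2 of 8 genes reached 1 FPKM. Cd68, at 22.5 FPKM, was the highest on the myeloid list, where 2 of 6 did. Their part in the NOTCH values was not tested.

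The lines differed in which receptors were present and in the targets DTX1 and HES1, while the targets HEY1 and NRARP stayed below 1 FPKM in all 4 libraries. Jurkat held NOTCH1, NOTCH2 and NOTCH3 together with DTX1 and HES1. TALL104 held as much NOTCH1 and more NOTCH2, with DTX1 listed at 0 and HES1 near 0. IVA12 held Notch1, Notch2, Hes1 and Dtx1. EL4 held Notch2 and hardly any Notch1, Hes1 or Dtx1.

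**Figure D1:**
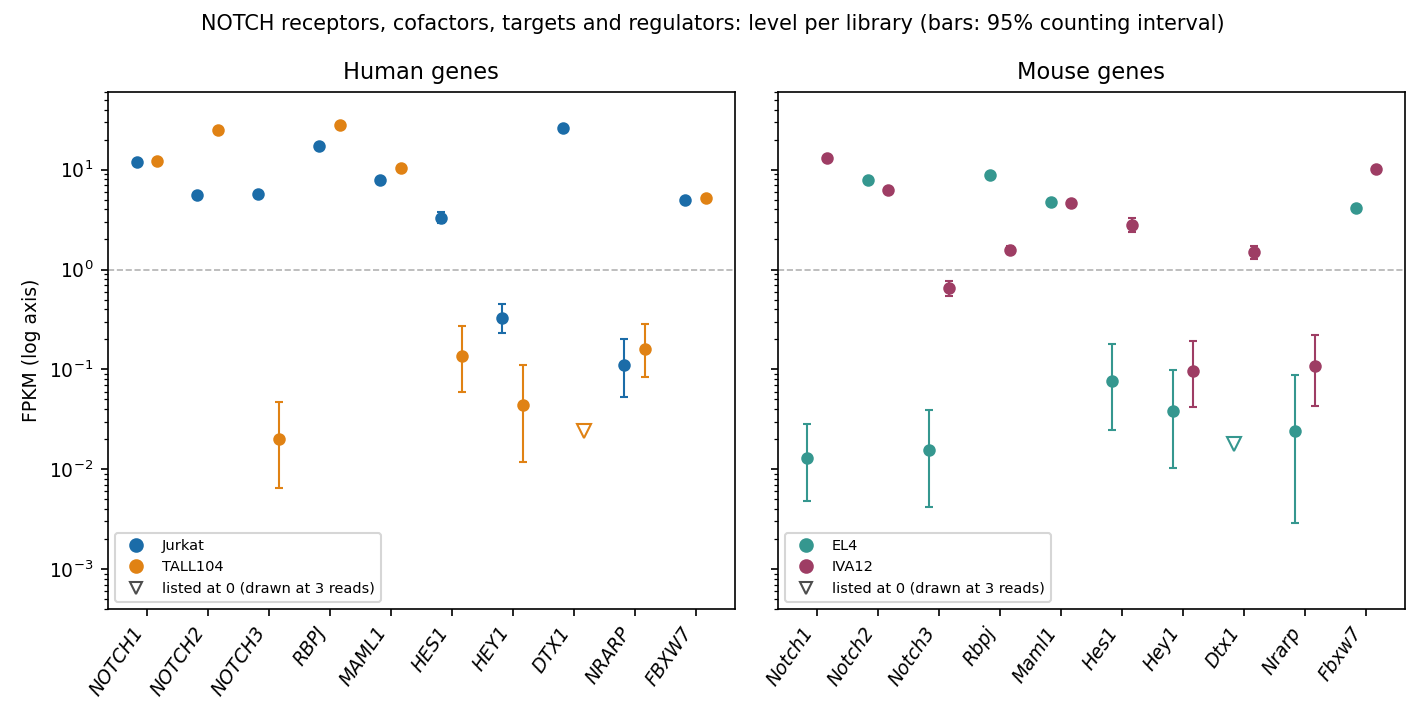
Each point is the FPKM (log axis) of 1 gene in 1 library, with human genes in Jurkat and TALL104 on the left and mouse genes in EL4 and IVA12 on the right. Bars are 95% counting intervals, the dashed line marks 1 FPKM, and open triangles stand for genes listed at 0, drawn at the level of 3 reads. DTX1 spans from 26.2 FPKM in Jurkat to 0 in TALL104, and Notch1 from 0.0131 in EL4 to 13.0 in IVA12.

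Among the receptors, NOTCH1, which lies on chromosome 9 (hg19, chr9:139388885-139440500, minus strand, ENSG00000148400), was at 12.0 FPKM (11.7 to 12.4) in Jurkat and 12.3 (11.9 to 12.7) in TALL104. Notch1 (mm10, chr2:26457903-26516663, minus strand, ENSMUSG00000026923) was at 0.0131 FPKM in EL4, from 6 reads, and at 13.0 (12.6 to 13.3) in IVA12, from 4668 reads. Only EL4 was low. The human lines did not separate, since their intervals overlapped and the ratio of Jurkat to TALL104 was 0.979 (0.935 to 1.02). The mouse lines differed 989-fold (454 to 2697) in favour of IVA12.

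NOTCH2 (hg19, chr1:120454176-120643366, minus strand) was at 5.62 FPKM (5.43 to 5.81) in Jurkat and 24.9 (24.5 to 25.4) in TALL104. Notch2 was at 7.95 (7.66 to 8.25) in EL4 and 6.28 (5.99 to 6.58) in IVA12. It was the only receptor gene above 1 FPKM in all 4 libraries, and TALL104 was the high line. TALL104 exceeded Jurkat 4.44-fold (4.27 to 4.61), and EL4 exceeded IVA12 by only 1.27-fold (1.19 to 1.35). Human NOTCH2 has 4 annotated near-copies, the NOTCH2NL genes, and the handling of reads that align to several of them is not stated, so its human level is uncertain.

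NOTCH3 (hg19, chr19:15269849-15311806, minus strand) is a receptor gene that NOTCH1 can itself induce in T-cell leukaemia. It was at 5.68 FPKM (5.42 to 5.96) in Jurkat, from 1739 reads, and at 0.0200 (0.00651 to 0.0468) in TALL104, from 5 reads. Notch3 (mm10, chr17:32120820-32166852, minus strand) was at 0.0155 FPKM in EL4, from 4 reads, and at 0.649 (0.543 to 0.770) in IVA12, from 132 reads. Jurkat was the only library of the 4 with NOTCH3 above 1 FPKM. Its excess over TALL104 was 283-fold (121 to 874), and that of IVA12 over EL4 was 42.0-fold (16.0 to 156).

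The receptor make-up therefore differed in every line. NOTCH1 was 51.5% of the summed receptor FPKM in Jurkat (counting SD 0.537), with NOTCH2 at 24.0% and NOTCH3 at 24.3%. In TALL104 NOTCH2 led with 66.8% and NOTCH1 followed with 32.9%. The human shares also depend on uncertain gene lengths and on NOTCH2NL reads, which the counting SD does not cover. By reads, which weights long genes, NOTCH1 and NOTCH2 were 45.1% and 35.8% in Jurkat and 22.4% and 77.4% in TALL104. EL4 was almost purely Notch2, at 99.5%. IVA12 held 65.0% Notch1, 31.5% Notch2 and 3.25% Notch3. NOTCH4, which is an endothelial receptor and no member of the set, was at most 0.270% in any library. The sums were 23.4 FPKM in Jurkat and 37.3 in TALL104, and 7.99 in EL4 and 20.0 in IVA12, so EL4 had the least receptor message per length.

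**Figure D2:**
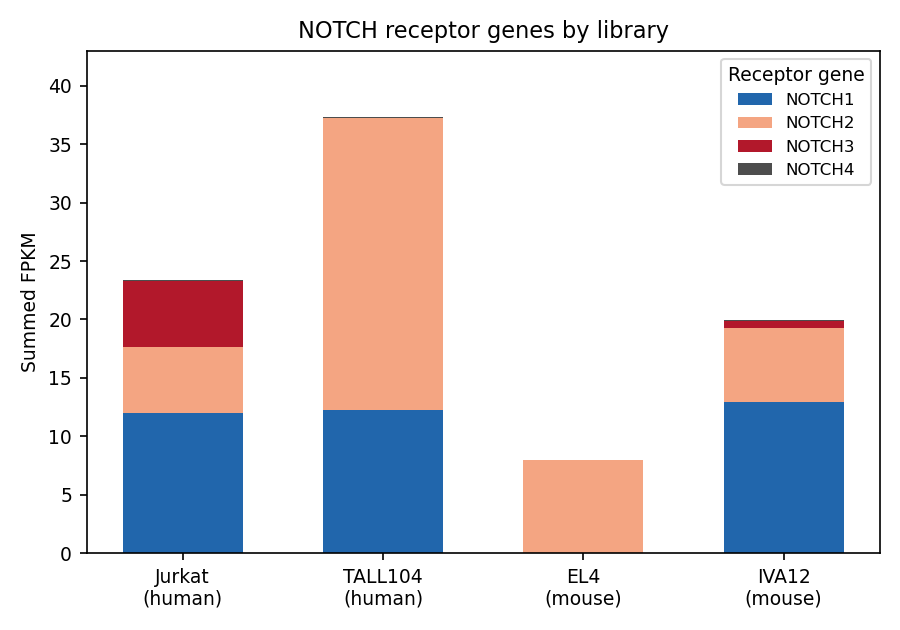
Stacked bars give the FPKM of the 4 NOTCH receptor genes in each library, summed on a linear axis from 0; there is 1 library per bar. Jurkat has 3 visible receptors, TALL104 is mostly NOTCH2 (66.8%), and EL4 is Notch2 alone to the eye (99.5%).

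The nuclear cofactors were present in every line. RBPJ (hg19, chr4:26165077-26436753, plus strand), the DNA-binding partner, was at 17.1 FPKM (16.7 to 17.6) in Jurkat and 28.2 (27.6 to 28.9) in TALL104. Rbpj (mm10, chr5:53466152-53657362, plus strand) was at 8.82 (8.54 to 9.12) in EL4 and 1.56 (1.43 to 1.70) in IVA12. The higher line of each pair was TALL104 and EL4, the lines with little or no DTX1 and HES1. Any link between RBPJ and these targets was not tested. The RBPJ ratios were 1.65-fold (1.59 to 1.71) for TALL104 over Jurkat and 5.66-fold (5.15 to 6.22) for EL4 over IVA12. RBPJ has 4 annotated pseudogenes in human and 2 in mouse that may share its reads, so its levels are uncertain too. MAML1, the coactivator, was flat by comparison, at 7.89 FPKM (7.61 to 8.18) in Jurkat and 10.4 (10.1 to 10.8) in TALL104, and at 4.77 (4.45 to 5.10) in EL4 and 4.60 (4.25 to 4.97) in IVA12. Neither pair of lines differed past 1.5-fold in MAML1, and in the mouse pair the intervals overlapped.

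DTX1, an E3 ubiquitin ligase of the Deltex family, had the largest log2 ratio of the members in the human pair, though not in the mouse pair, where that of Notch1 was larger. The human gene (hg19, chr12:113494535-113535833, plus strand) was at 26.2 FPKM (25.4 to 27.0) in Jurkat, from 3997 reads, and was listed at 0 in TALL104, where 3 reads would have been 0.0241 FPKM. In mouse, Dtx1 (mm10, chr5:120680202-120711927, minus strand) was listed at 0 in EL4, where 3 reads would have been 0.0177 FPKM, and was at 1.49 (1.29 to 1.71) in IVA12, from 198 reads. In each species 1 line thus had the transcript and the other had no read of it. Against the 3-read level of 1 library, Jurkat was at least 1086-fold higher than TALL104, and IVA12 at least 83.9-fold higher than EL4. In Jurkat DTX1 was the highest of the 10 members and lay above 90.25% of the genes with a value over 0.

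HES1 is a transcriptional repressor of the basic helix-loop-helix class and a textbook NOTCH target. The human gene (hg19, chr3:193853937-193856521, plus strand) was at 3.32 FPKM (2.91 to 3.77) in Jurkat, from 238 reads, and 0.137 (0.0591 to 0.270) in TALL104, from 8 reads. Hes1 (mm10, chr16:30064384-30067796, plus strand) was at 0.0763 (0.0248 to 0.178) in EL4, from 5 reads, and 2.80 (2.36 to 3.29) in IVA12, from 144 reads. Jurkat and IVA12 were the lines above 1 FPKM, as for DTX1, and the intervals of the lines did not overlap within either species. The ratios were 24.2-fold (12.1 to 56.8) for Jurkat over TALL104 and 36.6-fold (15.3 to 114) for IVA12 over EL4.

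The other targets stayed low in all lines. HEY1, a related repressor, was at 0.329 FPKM (0.232 to 0.454) in Jurkat, from 37 reads, and 0.0437 (0.0119 to 0.112) in TALL104, from 4 reads. Hey1 was at 0.0381 FPKM in EL4 and 0.0969 in IVA12, from 4 and 8 reads. HEY1 thus had more reads in Jurkat than in TALL104, by 7.54-fold (2.71 to 29.1) in FPKM, although on the log2(FPKM + 1) scale, which pulls low genes together, the difference was only 0.35. NRARP, a small ankyrin-repeat protein that limits NOTCH activity, was at 0.110 FPKM in Jurkat (10 reads) and 0.162 in TALL104 (12 reads), and Nrarp at 0.0241 in EL4 (2 reads) and 0.107 in IVA12 (7 reads). No line exceeded its partner beyond the counting interval in NRARP, the human ratio being 0.679 (0.263 to 1.72) and the mouse ratio 0.225 (0.0228 to 1.18). Jurkat, with the highest DTX1, therefore did not stand out in NRARP.

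FBXW7, which limits the life of the intracellular domain, was at 5.005 FPKM (4.78 to 5.24) in Jurkat and 5.21 (4.95 to 5.48) in TALL104. Fbxw7 was at 4.13 (3.87 to 4.40) in EL4 and 10.1 (9.66 to 10.6) in IVA12. The human lines overlapped, and IVA12 exceeded EL4 2.45-fold (2.27 to 2.66).

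Within a library the members fell into a present and a near-absent group. Jurkat ran from DTX1 through RBPJ, NOTCH1, MAML1, NOTCH3, NOTCH2, FBXW7 and HES1 to HEY1 and NRARP, and only NOTCH3 and NOTCH2 had overlapping intervals as neighbours. In TALL104 RBPJ, NOTCH2, NOTCH1, MAML1 and FBXW7 followed in this order without overlap of neighbouring counting intervals. The neighbours among NRARP, HES1, HEY1, NOTCH3 and DTX1 could not be separated. The human orders also depend on gene length. The recovered length was 0.59 of the annotated exon length for RBPJ, 0.788 for NOTCH1 and 1.79 for MAML1. The places of these genes in Jurkat and TALL104 are therefore uncertain. EL4 gave Rbpj, Notch2, Maml1 and Fbxw7, followed by 6 members whose neighbours overlapped. IVA12 ran from Notch1 through Fbxw7, Notch2, Maml1 and Hes1 to Rbpj and Dtx1, which overlapped, then Notch3, Nrarp and Hey1. At 1 FPKM or more, 8 members were present in Jurkat and 5 in TALL104, and 4 in EL4 and 7 in IVA12.

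The lines of each species were compared on log2(FPKM + 1), a scale that understates the change of low genes, and a gene was counted as different past 1.5-fold, the fold the study applied to its bulk data. In the human pair 3 members were higher in Jurkat (NOTCH3 by 2.71, HES1 by 1.93 and DTX1 by 4.77 on this log2 scale), and 2 were higher in TALL104 (NOTCH2, with a log2 ratio of -1.97, and RBPJ, with -0.69). Of all human genes 25.3% passed this fold, 13.8% toward Jurkat and 11.4% toward TALL104. Most human genes are near 0 in both lines and cannot pass. Among genes with at least 1 FPKM in either line, 5 of 8 members passed beside 62.6% of all such genes, so the members differed about as often as other expressed genes. The median log2 ratio of the 10 members was -0.04, beside 0.10 for the human genes that reached 1 FPKM in both lines. These sets are unlike, since several members did not reach 1 FPKM in both lines.

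In the mouse pair Rbpj was higher in EL4, by 1.94 on the log2 scale. Higher in IVA12 were 5 members, with log2 ratios of -3.79 for Notch1, -1.82 for Hes1, -1.31 for Dtx1, -1.12 for Fbxw7 and -0.70 for Notch3. Of all mouse genes 21.0% passed, 9.75% toward EL4 and 11.2% toward IVA12. Among genes with at least 1 FPKM in either line, 5 of 7 members passed beside 50.3% of all such genes. The median over the 10 members was -0.41, beside -0.02 for the mouse genes that reached 1 FPKM in both lines. Here too several members did not reach 1 FPKM in both lines, so the sets are unlike. NOTCH3, HES1 and DTX1 were thus higher in Jurkat and in IVA12, RBPJ was higher in the other line of each pair, and NOTCH1 passed in the mouse pair but not in the human pair.

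**Figure D3:**
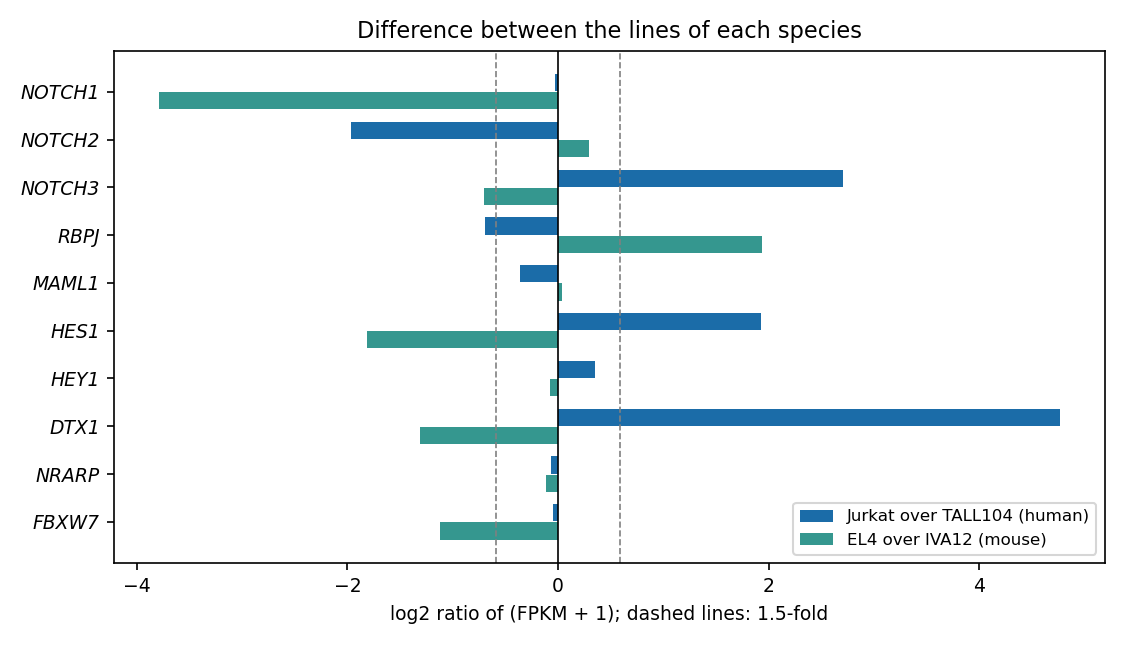
Bars give the log2 ratio of (FPKM + 1) for each member, Jurkat over TALL104 in blue and EL4 over IVA12 in green, with 1 library per line and dashed lines at 1.5-fold. HES1 and DTX1 point right in the human pair (1.93 and 4.77) and left in the mouse pair (-1.82 and -1.31), which is toward Jurkat and toward IVA12.

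The other genes of the pathway were read by role, over 76 listed genes that include the members. In the human pair 22 were higher in Jurkat, 20 in TALL104 and 34 in neither. In the mouse pair, where 73 were found, 12 were higher in EL4, 19 in IVA12 and 42 in neither. Most listed genes were expressed, 66 in human and 57 in mouse reaching 1 FPKM in either line. Of those 66, 21 were higher in Jurkat and 19 in TALL104, beside 34.2% and 28.4% of all expressed human genes. Of those 57, 12 were higher in EL4 and 18 in IVA12, beside 23.8% and 26.5% in mouse. Either way, 62.6% of expressed human and 50.3% of expressed mouse genes passed. The listed genes thus differed about as often as others. These shares are the background for the lists below, chosen with earlier results known.

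Of the 5 ligand genes 3 were higher in TALL104 and 1 in Jurkat, and in mouse 3 were higher in IVA12 and 2 in neither line. DLL1, a Delta-like ligand, was at 0.0906 FPKM in Jurkat, from 10 reads, and at 29.9 in TALL104, from 2689 reads. JAG2, a Jagged ligand, was at 0.795 in Jurkat and 6.49 in TALL104. DLL3 went the other way, at 0.0270 in TALL104 against 0.922 FPKM in Jurkat. In mouse Jag2 was at 9.14 FPKM against 0.767 in EL4 and Dll3 at 3.39 against 0.0873. No ligand reached 1 FPKM in Jurkat or in EL4. The median log2 ratios of the list were -1.36 for Jurkat over TALL104 and -1.41 for EL4 over IVA12.

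Other genes mature and cut the receptor. Of the 9 protease genes 3 were higher in TALL104 and 6 in neither line, and in mouse 1 was higher in EL4, 3 in IVA12 and 5 in neither. FURIN, which makes the first cut of the receptor in the secretory pathway, was at 6.53 FPKM in Jurkat and 82.8 in TALL104. ADAM10, the sheddase, was high everywhere, at 36.5 FPKM in Jurkat and 41.3 in TALL104, and at 37.0 in EL4 and 79.8 in IVA12. In mouse the gamma-secretase genes Aph1b (0.229 in EL4, 3.62 in IVA12) and Psen2 (1.86 and 7.82) differed most. Among the 5 genes that add sugars to the receptor, the fringe genes LFNG (0.162 in Jurkat, 2.25 in TALL104) and MFNG (24.1 and 64.6) differed most in human, where 1 gene was higher in Jurkat, 3 in TALL104 and 1 in neither. In mouse 2 were higher in IVA12 and 3 in neither, with Rfng at 6.27 in EL4 and 11.9 in IVA12 and Pofut1, the fucosyltransferase, at 5.63 and 10.2.

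Of the 9 genes of the activator complex, RBPJ and MAML1 included, 6 were higher in TALL104, 3 in neither line and 0 in Jurkat, with a median log2 ratio of -1.02. Of expressed human genes, 28.4% were higher in TALL104 and 34.2% in Jurkat. RBPJ is among the 6 and no longer passed at a 2-fold threshold. KAT2B, a histone acetyltransferase, was at 3.84 FPKM in Jurkat and 69.5 in TALL104, and MAML3 was at 0.237 and 9.05. MAML2, named after its values were seen because it is the remaining Mastermind gene, was at 0.0850 and 7.35. TALL104 thus held 3 Mastermind genes above 1 FPKM where Jurkat held MAML1 alone. In mouse Rbpj was the 1 gene higher in EL4, 2 were higher in IVA12, among them Kat2a (30.3 in EL4, 61.7 in IVA12), and 6 in neither. Of the 11 corepressor genes 3 were higher in Jurkat, 1 in TALL104 and 7 in neither, and TLE1, a Groucho corepressor that works with HES proteins, was at 2.59 FPKM in Jurkat and 0.288 in TALL104. HDAC2, a histone deacetylase, was at 20.9 in Jurkat and 7.62 in TALL104. In mouse 2 corepressor genes were higher in EL4, 1 in IVA12 and 8 in neither. Tle1 went toward IVA12, at 0.00357 FPKM in EL4 (1 read) against 4.12.

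Turnover and trafficking genes were mixed, with 3 of 12 higher in Jurkat, 2 in TALL104 and 7 in neither, and 1 of 11 higher in EL4, 4 in IVA12 and 6 in neither. MIB1, a ubiquitin ligase that acts on the ligands, was at 9.42 FPKM in Jurkat and 48.3 in TALL104. Of the Deltex relatives in mouse, Dtx3 went opposite to Dtx1, at 12.9 FPKM in EL4 and 3.38 in IVA12, and Dtx3l went the same way as Dtx1, at 6.33 and 18.5.

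Of the 9 HES and HEY repressors 5 were higher in Jurkat, 0 in TALL104 and 4 in neither, and the median log2 ratio was 0.81. Among all human genes with at least 1 FPKM in either line, 34.2% were higher in Jurkat and 28.4% in TALL104. HES4 was at 11.3 FPKM in Jurkat, from 441 reads, which was 120-fold the 3-read level of TALL104, where it was listed at 0. HEYL and HEY2, named after their values were seen, were at 1.73 and 1.03 FPKM in Jurkat and at 0 in TALL104. HES6 was the highest of the group in TALL104, at 1.33 FPKM against 3.11 in Jurkat. In mouse Hes6 was the highest in both lines, at 19.6 in EL4 and 10.5 in IVA12, opposite in direction to Hes1, and the other 6 of 8 genes passed in neither direction.

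The promoters of HES1, HES4 and HEYL are shown as examples, chosen after the search because the letters described below lie near their starts and the genes were above 1 FPKM in Jurkat and below it in TALL104. HEY2, which had the same expression pattern, has 1 match farther out, at -213. HES6, also higher in Jurkat (3.11 FPKM against 1.33 in TALL104), has none. HES2 and HES7, with more reads in Jurkat than in TALL104 but below 1 FPKM in both, have none either. Each line holds the 120 bases before the transcription start on the gene's own strand, from RefSeq on GRCh38.p14, a build other than that of the files. Capitals mark TGGGAA, the core letters that RBPJ is known to bind, which were searched on both strands (TTCCCA on the other) with no other motif searched. The windows are HES1 at chr3:194136028-194136147 (plus strand), HES4 at chr1:1000098-1000217 (minus strand) and HEYL at chr1:39639644-39639763 (minus strand).
HES1: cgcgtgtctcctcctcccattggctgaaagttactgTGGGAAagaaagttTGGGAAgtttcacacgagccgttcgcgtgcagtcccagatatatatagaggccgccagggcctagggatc
HES4: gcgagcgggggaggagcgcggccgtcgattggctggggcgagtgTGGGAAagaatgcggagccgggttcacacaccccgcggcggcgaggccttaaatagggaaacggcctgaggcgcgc
HEYL: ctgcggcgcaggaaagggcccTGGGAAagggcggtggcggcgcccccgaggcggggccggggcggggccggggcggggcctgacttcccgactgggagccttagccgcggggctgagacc

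HES1 has the letters at -84 and -70 from the start, HES4 at -76 and HEYL at -99, with a second HEYL match at -178, outside the printed window. Over the 250 bases before the start, 5 of 8 promoters of the HES and HEY family held them (62.5%), and 3 held at least 2 copies. Of the 15 promoters listed for the members other than DTX1 and HEY1, 2 held them (13.3%). Of all 35116 listed promoters 20.8% held the letters and 2.9% held at least 2. HES5, at 0 FPKM in both human lines, also has 2 matches, so the letters and the level did not go together gene by gene. Among the other members, NOTCH1, NOTCH2, NOTCH3, MAML1, NRARP and FBXW7 had no match in this window, and 1 of the 5 promoters listed for RBPJ had 2. A match is a run of letters and not a measured binding site.

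Of 15 genes known as NOTCH targets in thymocytes or T-cell leukaemia, 10 were higher in Jurkat, 1 in TALL104 and 4 in neither, with a median log2 ratio of 0.77. Of all human genes 13.8% were higher in Jurkat and 11.4% in TALL104. Among expressed human genes, which 13 of the 15 are, the shares were 34.2% and 28.4%. The list holds 5 of the members. MYC, the growth regulator, was at 96.8 FPKM in Jurkat and 20.4 in TALL104, and SHQ1, a ribonucleoprotein assembly factor, at 32.3 and 4.05. TRIB2, a pseudokinase, was the gene that went to TALL104, at 54.5 against 19.1 FPKM. In mouse the list was split, with 6 higher in EL4, 4 in IVA12 and 5 in neither. Of all mouse genes 9.75% were higher in EL4 and 11.2% in IVA12. Among expressed mouse genes, which 11 of the 15 are, the shares were 23.8% and 26.5%. The genes toward EL4 included Tcf7, a T-lineage transcription factor, at 597 FPKM against 1.14 in IVA12, and Il7r, the interleukin 7 receptor, at 42.0 against 0.0123 (1 read). In EL4, where Tcf7 and Il7r were high, Notch1 was at 6 reads, Notch2 at 7.95 FPKM and Rbpj at 8.82. T-cell markers were higher in EL4 too, 10 of 10. Any link among these levels was not tested. Myc was at 51.9 in EL4 and 195 in IVA12. Of the targets known in B cells, which share DTX1, HES1 and MYC with the former list, 4 of 6 were higher in Jurkat and 2 in neither, and in mouse 3 of 5 were higher in IVA12 and 2 in neither.

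**Figure D4:**
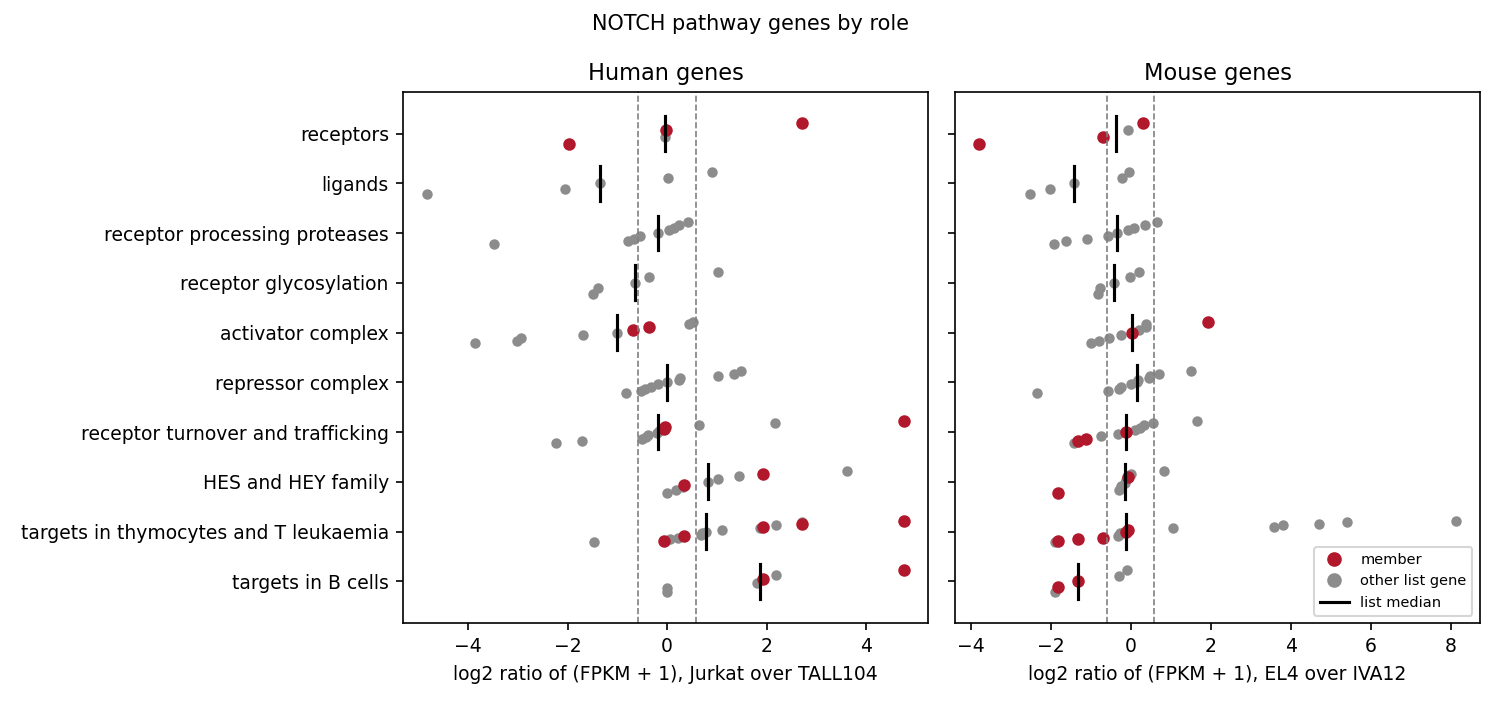
Each point is the log2 ratio of (FPKM + 1) of 1 gene, sorted by role, with Jurkat over TALL104 on the left and EL4 over IVA12 on the right. Members are red, other listed genes grey, black bars are list medians and dashed lines mark 1.5-fold. The ligand medians lie left of 0 in both panels (-1.36 and -1.41), with 1 human ligand past the line on the right, and the median of the HES and HEY family lies right of 0 in human (0.81) and left of it in mouse (-0.13).

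Genes most like a member were sought among 15550 symbols found once in both species, by the largest difference in log2(FPKM + 1) over the 4 libraries. NOTCH1 was followed most closely by RRAS2, a RAS-related GTPase, at 10.1 FPKM in Jurkat and 13.1 in TALL104, and at 0.0548 in EL4 and 16.5 in IVA12, with a largest difference of 0.33. NIPA1 and BTG3 followed, both at 0.38. For HES1 the nearest were PAX9 (0.16), SCAMP5 (0.17) and ONECUT2 (0.19). DTX1 had no close match, since NREP, the nearest, differed by up to 0.72, and PFN2 and CLEC11A by 0.87 and 0.96. With 4 libraries, such likeness describes these libraries and nothing more.

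Reads on the members of the species a library does not hold give the background of the combined human and mouse alignment. They came to 5 reads in Jurkat, 4 in TALL104 and 6 in EL4, over all 10 genes. In IVA12 there were 47, which is 0.476% of its reads on members of both species. Per gene they reached at most 2 reads in EL4 and in TALL104 and 18 in IVA12. The low own-species counts were 6 reads of Notch1 and 5 of Hes1 in EL4, and 5 of NOTCH3 and 8 of HES1 in TALL104. Each was above the at most 2 reads of its own library and below the 18 of IVA12. Reads on the other species do not measure the background on a line's own genes. Whether the low own-species counts are transcripts of the line was not tested.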

How the data were processed

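Bulk stranded messenger RNA libraries of 4 cell lines (Jurkat, TALL104, EL4 and IVA12, 1 each) were used, grouped by the labels. Per the study's methods and the submitters' processing notes, the authors aligned reads with STAR 2.5.1b to a combined hg19 (Ensembl 82) and mm10 (Ensembl 84) reference from Cell Ranger 1.2.0 and counted them with featureCounts 1.6.3. The deposited table, made by the authors, holds FPKM of all genes and 0 further sample columns. Gene lengths, the strand setting and the treatment of multiply aligned reads are not given in the sources used here. Where a member overlaps a gene on the other strand, as NOTCH1, NOTCH2, NRARP and FBXW7 do in human and Notch1, Notch3, Rbpj, Maml1, Nrarp and Fbxw7 in mouse, reads of both may be mixed.

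Reads were recovered from the FPKM as whole multiples of the value of 1 read, with gene lengths of at most 300000 bases tried and a relative tolerance of 1e-12, and 100% of values came out whole. The length was multiplied where that brought it within 1% of the annotated exon length. The recovered length equalled the annotated one for 22.2% of human and 72.8% of mouse genes. A count of reads may therefore miss a common factor, which would widen its interval, and levels between human genes depend on lengths that are not those of the annotation. Steps were checked on simulated data. Symbols and positions came from GENCODE human 44 (mapped to hg19) and mouse M21, with 31182 human and 27645 mouse genes matched. Of the listed symbols, PECAM1 was not matched in human, nor NEURL1, HES4, FCER2, GNLY, LYZ and FCGR3A in mouse.

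With 1 library per line no test was made and count models were not used. Ratios were taken on log2(FPKM + 1), with 1.5-fold as the threshold and 1 FPKM as detection. A zero was set at 3 reads for folds. Intervals of ratios of FPKM are exact binomial ones of the reads at 95%. Alternatives were pseudocounts of 0.1 and 0.01, other scalings, a 2-fold threshold, a filter on low values and other detection levels. Members and gene lists were chosen with earlier results of these data known. Named are all members, the 2 genes of each list with the largest difference in each pair, the highest gene of each list in each library and the 3 genes most like NOTCH1, HES1 and DTX1. Some genes that this rule names are not reported here. Computations used Python 3.11.15, NumPy 2.4.6, pandas 2.3.3, SciPy 1.17.1 and matplotlib 3.10.9.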

Additional observations from a re-analysis of the deposited data

Results flagged for a closer look

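Human reads on members in IVA12, a mouse line, stood above the level that a count of 0 allows (3 reads). They were 18 reads on NOTCH2, 7 on RBPJ and 6 each on NOTCH1, MAML1 and HES1, or at most 0.115 FPKM (HES1). Reads on all human genes were 0.213% of the IVA12 library, beside 0.0499% in EL4. The cause was not tested.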

How the results depend on the processing

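The members' calls were the same under the 3 other scalings. At a 2-fold threshold 1 member stayed higher in TALL104, since RBPJ no longer passed, and Notch3 no longer passed in mouse. HEY1 passed with pseudocounts of 0.1 and 0.01, Nrarp with both and Hey1 with 0.01. Pathway genes higher in IVA12 came to 32 with a pseudocount of 0.01 instead of 19, while the share of all mouse genes higher there went from 11.2% to 22.2%. As a share of receptor reads, which weights long genes, NOTCH1 was 45.1% in Jurkat, 22.4% in TALL104 and 71.6% in IVA12. Members detected at any value above 0 were 9 in TALL104 and 9 in EL4, and at 5 FPKM or more 2 in EL4 and 3 in IVA12. Of the reads on the other species' members, none in the human lines (0 in Jurkat and 0 in TALL104) fell on symbols under 1 FPKM in the library's own species, beside 3 in EL4 and 1 in IVA12, and the other 3 in EL4 fell on the rest. Of 135 ratios of single members recomputed, 97 moved by less than counting error, 38 moved more and 0 changed sign. The 97 include all ratios under the 2-fold threshold and the filter on low values. Those 2 settings leave the ratio itself unchanged, so the 97 overstates how stable the ratios were. Levels that rest on 8 reads or fewer were not separated from background, which was not measured on a line's own genes. No paired analysis was possible because each line has 1 library.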
